A study of Mus musculus with 9 samples.

Results

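The genes described here encode receptors for acetylcholine. They are the 5 muscarinic receptor genes Chrm1 to Chrm5 and 5 nicotinic subunit genes, Chrna4, Chrna5, Chrna6, Chrna7 and Chrnb2, which is 10 of the 52636 genes in the count table. They were chosen by name and not by a cut on their values, though with earlier results of these data known.

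RNA was sequenced from cells of the nucleus accumbens, a part of the ventral striatum, of male C57BL/6 mice. The cells had been stained with a fluorescent antibody against the acetylcholine-synthesising enzyme ChAT and sorted as cholinergic interneurons. Of the 9 libraries, 3 came from drug-naive mice, which are called naive here, and 3 each from the groups titled RES and SUS. RES and SUS mice self-administered cocaine, first up to 40 infusions on a fixed ratio and then 10 daily progressive ratio sessions of 23 h at 1.2 mg/kg per infusion, and their tissue was collected on day 3 after the last session. Tissue punches from 2 to 3 mice of a condition were pooled, and the labels do not say whether each library had a pool of its own, so the p-values below measure only the spread between libraries. The phenotype field of the labels calls the RES libraries susceptible and the SUS libraries resilient, against their titles. The title names are therefore kept without reading either group as the susceptible one, and RES and SUS are also joined as 6 cocaine libraries.

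Cholinergic interneurons are the main source of acetylcholine within the striatum. Muscarinic receptors are coupled to G proteins: M1, M3 and M5 act mainly through Gq and phospholipase C, while M2 and M4 act through Gi/o and lower cyclic AMP. Nicotinic receptors are cation channels built of several subunits. In the striatum, M2 and M4 are known as autoreceptors on cholinergic interneurons, M4 and M1 are also carried by medium spiny projection neurons, and nicotinic receptors containing α4, α6 or β2 are known from the axons of dopamine neurons, whose cell bodies lie outside the accumbens.

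The start regions of 3 of these genes are printed because the results turn on them. Chrm4 had the highest level per length of the 10 genes and Chrm2 the lowest. Chrnb2 varied together with Chrm4 across libraries, but its level did not stand above that of the median silent gene. Each run is the 250 bases upstream of a RefSeq start site in GRCm38.p6, read 5′ to 3′ on the strand of the gene, with capitals marking the GC box GGGCGG, searched on both strands (CCGCCC on the other). They lie at chr2:91921939-91922188 (plus strand, Chrm4), chr6:36387834-36388083 (plus strand, Chrm2) and chr3:89764633-89764882 (minus strand, Chrnb2).
Chrm4: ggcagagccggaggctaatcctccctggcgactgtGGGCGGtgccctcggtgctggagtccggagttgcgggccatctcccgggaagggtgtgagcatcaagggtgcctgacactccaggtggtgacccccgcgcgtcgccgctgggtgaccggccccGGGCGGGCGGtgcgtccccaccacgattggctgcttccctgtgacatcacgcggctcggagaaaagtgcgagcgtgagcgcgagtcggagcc
Chrm2: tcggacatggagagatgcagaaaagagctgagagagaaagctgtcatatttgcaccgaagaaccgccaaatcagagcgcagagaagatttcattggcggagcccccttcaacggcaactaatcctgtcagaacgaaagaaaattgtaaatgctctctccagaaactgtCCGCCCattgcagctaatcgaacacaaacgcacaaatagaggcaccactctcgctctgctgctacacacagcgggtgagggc
Chrnb2: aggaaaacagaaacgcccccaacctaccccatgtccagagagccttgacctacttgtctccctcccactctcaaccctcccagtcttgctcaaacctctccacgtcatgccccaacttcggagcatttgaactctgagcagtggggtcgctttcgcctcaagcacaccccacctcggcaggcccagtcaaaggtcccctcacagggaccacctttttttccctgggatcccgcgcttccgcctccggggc

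The Chrm4 run had 3 GC boxes, 2 of which overlap, 26 CpG dinucleotides and a GC content of 70%. The Chrm2 run had 1 GC box, 12 CpG dinucleotides and a GC content of 50%, and the Chrnb2 run had no GC box, 10 CpG dinucleotides and a GC content of 59.6%. Among 32851 RefSeq promoter windows of the same 250 bases, 32.7% held a GC box, the median GC content was 52.4% and the median number of CpG dinucleotides was 6. RefSeq entries matched 8 of the 10 genes, all but Chrm1 and Chrna6, and 5 of those 8 held a GC box in at least 1 window. No window of the 8 genes held the cyclic AMP response element TGACGTCA (1.55% of all windows) or the TATA box TATAAA (12.4%), and 1 window, of Chrna7, held the E box CACGTG (6.02%). These matches describe letters in short windows and not sites in use. The RefSeq start of Chrm4 lies 5060 bases upstream of the GENCODE gene model, which is 1 exon of 1440 bases, of which 1437 are coding. The model of Chrm5, 1 exon of 1599 bases, is of the same kind, so for these 2 genes the level below refers to the coding exon alone.

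Total counts ran from 4471675 to 11155730 per library, and mitochondrial genes took 9.09% to 28.7% of them. Background was measured in each library as the summed count density, in counts per kb of exon, of 1127 olfactory receptor genes, which ran from 6.09 to 21.3 counts per kb. At that density, exonic background would make up 23.8% (naive replicate 2) to 50.6% (RES replicate 3) of the nuclear counts. A second reference was 45 autosomal genes that the brain does not normally express, whose median density was 1.64 to 2.19 times background. None of 8 cholinergic interneuron markers averaged more than 3 times background, among them Chat (2.31 times, SD 2.12, n = 9, with 7.83 times in SUS replicate 2), Slc18a3 (0.854 times, SD 0.583) and Slc5a7 (1.08 times, SD 0.175), and their median ran from 1.03 to 2.08 times background, so the sorted cell type was not visible in its markers. By the same measure 11 of 13 medium spiny neuron markers, 7 of 8 astrocyte markers, 10 of 10 microglia markers and 7 of 7 oligodendrocyte markers were above 3 times background, and 0 of 6 dopamine neuron, 0 of 6 cortical glutamatergic, 0 of 6 endothelial and 0 of 5 blood cell markers. Further, 3 of 6 markers of other interneurons and 1 of 4 oligodendrocyte precursor markers were above it.

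Of the 10 receptor genes, 1, Chrm4, averaged more than 3 times background, where 26.1% of 21883 protein-coding nuclear genes and 4 of the 45 silent genes (8.89%) did. As a share, 1 of 10 is close to that of the silent genes. This cut alone therefore does not set the receptor genes apart from them. Chrm4 (ENSMUSG00000040495, GRCm38 chr2:91927249-91928688, plus strand) had 82, 74 and 256 counts in naive replicates 1, 2 and 3, 92, 138 and 57 in the RES replicates and 98, 223 and 43 in the SUS replicates. Per kb this was 3.48, 8.44 and 8.36 times background in the naive libraries, 5.05, 11.9 and 2.24 times in the RES libraries and 3.77, 8.60 and 1.59 times in the SUS libraries. Replicate 2 of RES was the highest library and replicate 3 of SUS the lowest, and the values of the 3 groups overlapped. The mean over libraries was 5.94 times background (SD 3.52, n = 9), at percentile 93.1 of protein-coding genes. Against the median silent gene of the same library, Chrm4 was higher in 8 of 9 libraries, with a mean log2 ratio of 1.37 (SD 0.962, two-sided exact sign-flip permutation test, p = 0.0117, Benjamini-Hochberg adjusted over 10 genes 0.0293). With 8 libraries this call was lost without any 1 of naive replicates 1, 2 and 3, RES replicates 1 and 2 or SUS replicates 1 and 2 (exact sign-flip p = 0.0234, adjusted p = 0.0586 in each), and held without RES replicate 3 (0.0391) or SUS replicate 3 (0.0260). Fewer libraries allow fewer sign flips, which by itself raises the exact p. These losses therefore do not show that the call rested on a single library. The mean log2 ratio stayed between 1.24 and 1.56 throughout. The test sets a gene against the median of the 45 silent genes only. Their spread did not enter it, so a pass does not place a gene outside the range of silent genes.

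**Figure D1:**
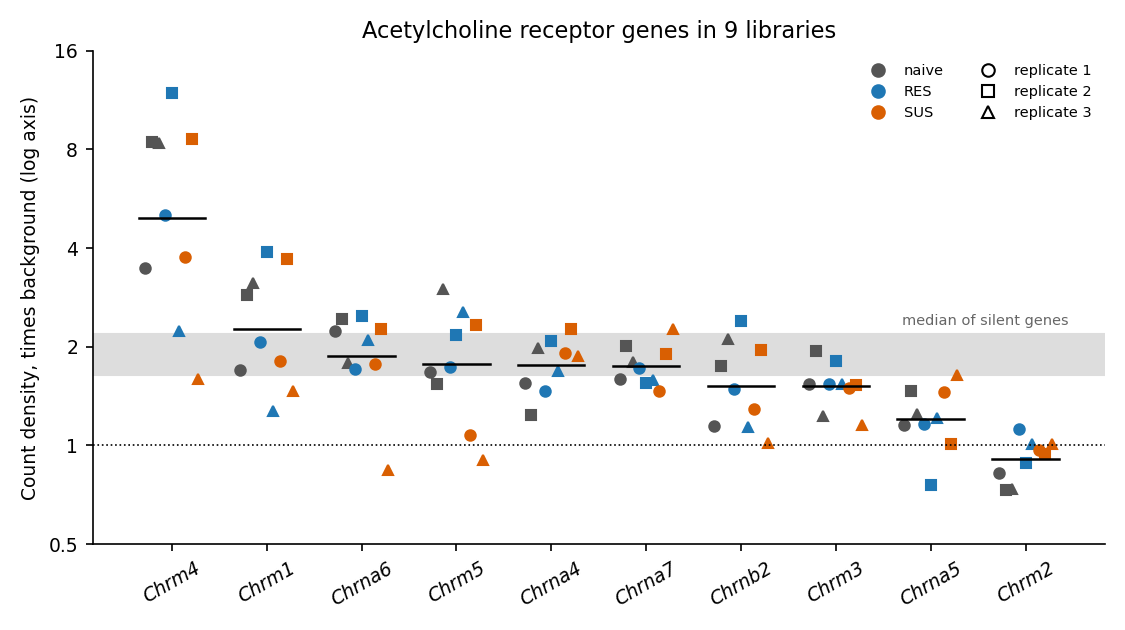
Count density of the 10 receptor genes in each library, in times the olfactory receptor background (log axis), ordered by the geometric mean, which is drawn as a bar. The grey band is the range of the median of 45 silent genes over libraries (1.64 to 2.19), and the dotted line is background. Chrm4 lies above the band in 8 of 9 libraries and Chrm2 below it in all 9.

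The other Gi/o-coupled receptor gene, Chrm2 (ENSMUSG00000045613, chr6:36388084-36528414, plus strand), was at the opposite end. Its counts were 82, 27 and 95 in the naive libraries, 86, 43 and 108 in the RES libraries and 106, 103 and 115 in the SUS libraries. Its density was 0.827, 0.732 and 0.738 times background in the naive libraries, 1.12, 0.884 and 1.01 times in the RES libraries and 0.970, 0.945 and 1.01 times in the SUS libraries. Chrm2 thus lay at the olfactory receptor level, with a mean of 0.916 times background (SD 0.132, n = 9), and under the median silent gene in 9 of 9 libraries (mean log2 ratio -1.07, SD 0.301, exact sign-flip permutation test, p = 0.00391, the smallest that 9 libraries allow, adjusted p = 0.0195). A 142-base stretch of its exons (2.35%) overlaps the non-coding gene 9330158H04Rik on the opposite strand, and the strand setting of the counting is not given in the sources used here.

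Of the Gq-coupled receptor genes, Chrm1 (ENSMUSG00000032773, chr19:8663789-8683587, plus strand) had the second highest level of the 10. Its density was 1.70, 2.88 and 3.13 times background in the naive libraries, 2.07, 3.90 and 1.27 times in the RES libraries and 1.81, 3.70 and 1.46 times in the SUS libraries. The same libraries were high and low as for Chrm4: replicate 2 of RES and SUS led, and replicate 3 of RES and SUS were the lowest. Its mean of 2.44 times background (SD 0.985, n = 9) was not distinguishable from the median silent gene (mean log2 ratio 0.25, higher in 6 of 9 libraries, exact sign-flip permutation test, adjusted p = 0.293). Chrm1 shares 329 exonic bases (5.07%) with the small RNA gene Gm22820 on the opposite strand.

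Chrm3 (ENSMUSG00000046159, chr13:9875486-10360847, minus strand), the Gq-coupled receptor best known from glands and smooth muscle, was at 1.15 to 1.94 times background, with a mean of 1.53 (SD 0.247, n = 9). It was under the median silent gene in 8 of 9 libraries (mean log2 ratio -0.33, exact sign-flip permutation test, adjusted p = 0.0260). This call was lost with the longest transcript in place of all exonic bases as length (adjusted p = 0.373), and without any 1 of naive replicates 1 and 3, RES replicates 1 and 2 or SUS replicates 1 and 2 (adjusted p = 0.0521 in each). There too, 8 libraries allow fewer sign flips than 9. Chrm5 (ENSMUSG00000074939, chr2:112479171-112480769, minus strand), which dopamine neurons are known to carry, rested on 15 to 102 counts per library. The lowest, 15 counts in naive replicate 2, has an exact Poisson 95% interval of 8.40 to 24.7, which covers counting error only. Its density was 1.68, 1.54 and 3.00 times background in the naive libraries, 1.73, 2.18 and 2.55 times in the RES libraries and 1.07, 2.33 and 0.901 times in the SUS libraries. Only naive replicate 3 reached 3 times background, and the mean of 1.89 (SD 0.687, n = 9) was not distinguishable from the median silent gene (exact sign-flip permutation test, adjusted p = 0.586).

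No nicotinic subunit gene reached 3 times background in any of the 9 libraries. Chrna4 (ENSMUSG00000027577, chr2:181018380-181043546, minus strand) and Chrnb2 (ENSMUSG00000027950, chr3:89746195-89764632, minus strand) encode the α4 and β2 subunits, which together form the main high-affinity nicotinic receptor of the brain. Chrna4 stood at 1.56, 1.24 and 1.99 times background in the naive libraries, 1.46, 2.08 and 1.69 times in the RES libraries and 1.91, 2.27 and 1.87 times in the SUS libraries. Chrnb2 stood at 1.14, 1.74 and 2.11 times background in the naive libraries, 1.48, 2.39 and 1.14 times in the RES libraries and 1.29, 1.95 and 1.02 times in the SUS libraries. The SUS libraries were all in the upper part of the range for Chrna4 and spread over the whole range for Chrnb2, and groups overlapped for both. Against the median silent gene neither was distinguishable (mean log2 ratios -0.12 and -0.33, exact sign-flip permutation tests, adjusted p = 0.293 and 0.133). With the longest transcript as length, Chrna4 lay under it (mean log2 ratio -0.26, exact sign-flip permutation test, adjusted p = 0.0456). The exons of Chrnb2 share 1365 bases (16.3%) with Adar, an RNA-editing enzyme gene on the opposite strand, and without a stated strand setting reads of the 2 genes there cannot be told apart.

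Chrna6 (ENSMUSG00000031491, chr8:27403212-27413944, minus strand), the subunit typical of dopamine axons, stood at 2.23, 2.43 and 1.78 times background in the naive libraries, 1.71, 2.48 and 2.10 times in the RES libraries and 1.77, 2.27 and 0.845 times in the SUS libraries. SUS replicate 3 stood lowest, and the mean log2 ratio to the median silent gene was -0.02 (SD 0.437, n = 9, exact sign-flip permutation test, adjusted p = 0.949). With the longest transcript as length, that ratio was -0.30 (exact sign-flip permutation test, adjusted p = 0.0456). Chrna7 (ENSMUSG00000030525, chr7:63098692-63212569, minus strand), which forms receptors of a single kind of subunit that let calcium pass, stood at 1.60, 2.00 and 1.80 times background in the naive libraries, 1.72, 1.55 and 1.58 times in the RES libraries and 1.46, 1.90 and 2.27 times in the SUS libraries. Its mean log2 ratio to the median silent gene was -0.12 (exact sign-flip permutation test, adjusted p = 0.293), and 0.28 with the longest transcript as length (adjusted p = 0.0391), because its longest transcript has 2814 of its 4505 exonic bases. Chrna5 (ENSMUSG00000035594, chr9:54980880-55007779, plus strand), an accessory subunit that joins α4β2 receptors, stood at 1.15, 1.47 and 1.25 times background in the naive libraries, 1.16, 0.757 and 1.21 times in the RES libraries and 1.45, 1.01 and 1.64 times in the SUS libraries. It lay under the median silent gene in 9 of 9 libraries (mean log2 ratio -0.66, SD 0.416, exact sign-flip permutation test, adjusted p = 0.0195). At this background, expression of these subunits below the level of silent genes would not be detectable.

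Ranked by the geometric mean of times background over 9 libraries, the order was Chrm4 (4.93), Chrm1 (2.26), Chrna6 (1.88), Chrm5 (1.77), Chrna4 (1.76), Chrna7 (1.75), Chrnb2 (1.52), Chrm3 (1.51), Chrna5 (1.21) and Chrm2 (0.907). Of the 45 pairs of genes, 23 differed within libraries (two-sided exact sign-flip permutation tests, adjusted over 45 pairs). Chrm4 and Chrm2 each differed from all 9 others. Between neighbours in the order, Chrm4 exceeded Chrm1 2.18-fold, in 9 of 9 libraries (exact sign-flip permutation test, p = 0.00391, adjusted p = 0.0146), and Chrna5 exceeded Chrm2 1.33-fold, in 8 of 9 libraries (adjusted p = 0.0400). The other 7 neighbouring pairs, from Chrm1 down to Chrna5, did not differ beyond their spread (adjusted p = 0.143 to 0.973). With the longest transcript as length, Chrm4 stayed first, Chrna5 ninth and Chrm2 last, while Chrna7 moved to second and Chrna6 to seventh. By all exonic bases, only Chrm4 passed as above the median silent gene. Differences among the other 9 genes are of count density near background and are not shown to be differences in expression.

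The libraries differed in the level of medium spiny neuron marker genes, and several receptor genes moved with it. The scores of the other marker lists were not tested against the receptor genes. The relation is therefore not shown to be particular to this cell type. A score was taken as the mean log2 CPM of 13 medium spiny neuron genes that include Ppp1r1b, Drd1 and Drd2 and no receptor gene described here. CPM are counts scaled to library size with TMM factors (trimmed mean of M values). The score was 5.52, 6.12 and 6.19 in the naive libraries, 6.02, 6.52 and 5.05 in the RES libraries and 5.42, 6.67 and 5.00 in the SUS libraries, so it varied more within the cocaine groups than between group means (5.94 in naive, 5.86 in RES and 5.70 in SUS). In bulk RNA, fewer cells of a type and less RNA per cell cannot be told apart. Score and receptor values are CPM of the same libraries, with background estimated at 23.8% to 50.6% of nuclear counts. The part of that background in the relations to the score was not tested.

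Chrm4 stood at 10.9, 22.4 and 23.7 CPM in the naive libraries, 16.1, 29.6 and 7.41 in the RES libraries and 10.6, 24.7 and 5.20 in the SUS libraries. Its log2 CPM followed the score with Pearson r = 0.967 (n = 9, two-sided exact permutation test, p = 3.58e-05, adjusted over 20 relations 0.000358) and Spearman rho = 0.983 (exact p = 4.96e-05, adjusted p = 0.000496). Chrm1 stood at 24.1, 34.5 and 40.0 CPM in the naive libraries, 29.8, 43.6 and 19.0 in the RES libraries and 23.0, 47.9 and 21.5 in the SUS libraries, and gave r = 0.977 (exact permutation p = 1.93e-05, adjusted p = 0.000358) and rho = 0.983 (exact p = 4.96e-05, adjusted p = 0.000496). For both genes the libraries with the highest medium spiny neuron score, RES replicate 2 and SUS replicate 2, were the highest, and RES replicate 3 and SUS replicate 3 the lowest. Without those last libraries, which lie farthest from the median score, r was 0.943 for Chrm4 and 0.981 for Chrm1.

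Chrnb2 stood at 20.9, 26.9 and 34.8 CPM in the naive libraries, 27.5, 34.6 and 22.0 in the RES libraries and 21.1, 32.7 and 19.3 in the SUS libraries. It also rose with the score (r = 0.921, exact permutation p = 0.00133, adjusted p = 0.00884; rho = 0.850, exact p = 0.00607, adjusted p = 0.0304; r = 0.918 without RES replicate 3 and SUS replicate 3). Chrna5 went the other way. Its level, a mean of 1.23 times background and under the median silent gene in all 9 libraries, cannot be told apart from background. It stood at 7.87, 8.46 and 7.68 CPM in the naive libraries, 8.06, 4.08 and 8.71 in the RES libraries and 8.88, 6.32 and 11.6 in the SUS libraries (r = -0.768, exact permutation p = 0.00539, adjusted p = 0.0270; rho = -0.900, exact p = 0.00203, adjusted p = 0.0135; r = -0.682 without those libraries). Leaving out each library in turn kept r between 0.960 and 0.983 for Chrm4, 0.969 and 0.987 for Chrm1, 0.896 and 0.9501 for Chrnb2 and -0.821 and -0.679 for Chrna5. The other 6 genes did not pass, with r from -0.559 (Chrm2, adjusted p = 0.301) to 0.415 (Chrna6, adjusted p = 0.415).

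**Figure D2:**
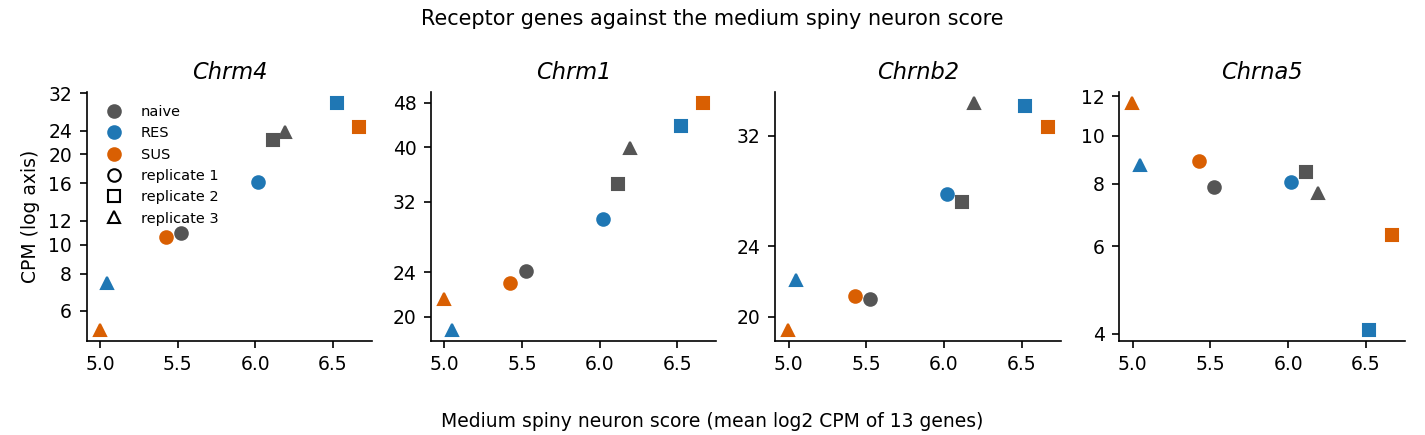
CPM (log axis) of Chrm4, Chrm1, Chrnb2 and Chrna5 in each library against the medium spiny neuron score, the mean log2 CPM of 13 genes. Chrm4, Chrm1 and Chrnb2 rise from left to right (r = 0.967, 0.977 and 0.921) and Chrna5 falls (r = -0.768), with libraries of all 3 groups mixed along the axis. Chrna5 lay under the median silent gene in all 9 libraries.

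The share of nuclear counts at background was tested against the same 10 genes, and 0 relations passed. The closest were Chrm4 (r = -0.669, exact permutation p = 0.0391), Chrm2 (r = 0.661, p = 0.0420) and Chrm1 (r = -0.654, p = 0.0420), each with an adjusted p of 0.120.

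As the receptor gene above 3 times background, Chrm4 was compared with 12602 other protein-coding genes of at least 10 CPM for likeness of pattern, measured as the root mean square (RMS) difference of centred log2 CPM over the 9 libraries. The closest were Sez6 (0.0984), Pacsin1 (0.102) and Celf5 (0.105), against an RMS of 0.802 for Chrm4 itself. These 3 genes averaged 13.7, 6.41 and 10.9 times background. Of the medium spiny neuron list, Pde10a, the striatal phosphodiesterase, was nearest, at rank 24 (0.175). The others with at least 10 CPM were farther down, from Bcl11b at rank 136 (0.279) over Ppp1r1b at 145, Drd2 at 201 and Penk at 884 to the dopamine D1 receptor gene Drd1 at 1686 (0.566).

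Group comparisons were fitted across all 39210 genes that passed a filter on low counts, which all 10 receptor genes did, with edgeR's quasi-likelihood test and Benjamini-Hochberg adjustment. RES and SUS were compared with the same naive libraries, so the comparisons below share samples and are given side by side only. The 4 comparisons were RES and SUS each against naive, SUS against RES, and all 6 cocaine libraries against naive. No receptor gene passed at an adjusted p of 0.05 in any of them. The share of all genes called in each direction was also 0% in each of the 4. At an unadjusted p under 0.05 edgeR had 361 genes in RES against naive (0.921% of those tested), 1225 in SUS against naive (3.12%), 2227 in SUS against RES (5.68%) and 541 in cocaine against naive (1.38%), of which 0 were receptor genes. DESeq2, and limma-voom using sample weights, found 0 genes at an adjusted p under 0.05 in each comparison. DESeq2, run on all 52636 genes without that filter, had 317, 1094, 2045 and 628 genes at an unadjusted p under 0.05. By limma-voom 1671, 3225, 3734 and 1697 of 39210 genes had an unadjusted p under 0.05. Receptor genes were among these with limma-voom, 1 of the 10 in each comparison: Chrm2 in RES against naive (log2 fold change 0.54, SE 0.207, limma unadjusted p = 0.0203, adjusted p = 1.00) and in cocaine against naive (0.42, unadjusted p = 0.0385, adjusted p = 1.00), and Chrm5 in SUS against naive (-0.90, unadjusted p = 0.0101, adjusted p = 0.583) and in SUS against RES (-0.77, unadjusted p = 0.0222, adjusted p = 0.492). Beside the counts over all genes, 1 of 10 does not set the receptor genes apart.

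The median log2 fold change of the 10 genes was 0.02 in RES against naive, -0.10 in SUS against naive, -0.13 in SUS against RES and -0.04 in cocaine against naive, beside -0.02, 0.02, 0.01 and 0.01 over all genes tested. A positive fold change was found for 6, 4, 4 and 5 of the 10 genes in that order, where 47.4%, 52.2%, 51.2% and 51.4% of all genes had one. For Chrm2 the CPM values were 10.9, 8.16 and 8.79 in the naive libraries, 15.1, 9.24 and 14.0 in the RES libraries and 11.5, 11.4 and 13.9 in the SUS libraries. All SUS libraries were above all naive libraries, while RES replicate 2 fell within the naive range. Its log2 fold change was 0.46 in RES against naive (SE 0.243, 95% interval -0.06 to 0.97), 0.39 in SUS against naive (SE 0.240, -0.12 to 0.90), -0.07 in SUS against RES (SE 0.236, -0.57 to 0.43) and 0.42 in cocaine against naive (SE 0.204, -0.01 to 0.86, unadjusted p = 0.0563, edgeR adjusted p = 1.00). Non-overlap of this kind, with SUS above naive, was found for 3.85% of all genes tested and for 1 of the 10 receptor genes, and with SUS below naive for 4.15% of all genes and 0 receptor genes.

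Relative to the median silent gene of each library, Chrm2 lay at 0.359 to 0.416 times in naive and 0.404 to 0.684 times in the cocaine libraries, and these ranges overlapped, with RES replicate 2 inside the naive range. Relative to the olfactory receptor background the ranges did not overlap, at 0.732 to 0.827 times in naive and 0.884 to 1.12 times in the cocaine libraries. Overlap thus depended on the scaling, and the share of all genes without overlap by that measure was not computed. Blood cell marker genes had a mean log2 CPM of 0.862 to 1.34 in naive and 1.37 to 2.34 in the cocaine libraries, and their part in the Chrm2 values was not tested.

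**Figure D3:**
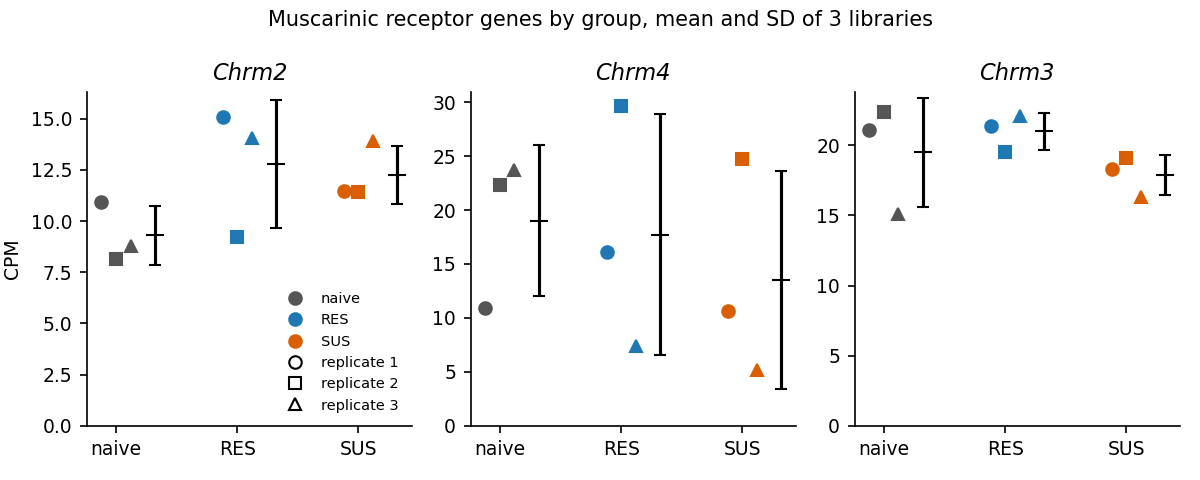
CPM of Chrm2, Chrm4 and Chrm3 in each library by group (linear axis from 0), with the mean and SD of 3 libraries beside the points. SUS lies above naive for Chrm2 and below RES for Chrm3, and for Chrm4 the groups overlap (10.9 to 23.7 CPM in naive, 7.41 to 29.6 in RES and 5.20 to 24.7 in SUS).

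Chrm4, for which the level was clearest, had the widest intervals. Its mean was 19.0 CPM in naive (SD 7.01, n = 3), 17.7 in RES (SD 11.2, n = 3) and 13.5 in SUS (SD 10.1, n = 3). The log2 fold changes were -0.12 (SE 0.512, 95% interval -1.21 to 0.98) in RES against naive, -0.48 (SE 0.508, -1.56 to 0.60) in SUS against naive, -0.37 (SE 0.511, -1.45 to 0.72) in SUS against RES and -0.29 (SE 0.443, -1.24 to 0.65) in cocaine against naive. In SUS against naive the interval ran from 0.338 to 1.52 times the naive level. That value depended on single libraries: it was -1.25 without SUS replicate 2 (edgeR unadjusted p = 0.0145, adjusted p = 0.549), -0.10 without SUS replicate 3, -0.77 without naive replicate 1 and -0.26 without naive replicate 3. Without RES replicate 3 and SUS replicate 3, the libraries with the lowest medium spiny neuron score, the sign turned in RES against naive (0.26) and in cocaine against naive (0.09).

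Chrm3 stood at 21.1, 22.4 and 15.1 CPM in the naive libraries, 21.4, 19.5 and 22.1 in the RES libraries and 18.3, 19.1 and 16.3 in the SUS libraries. All SUS libraries were below all RES libraries, a non-overlap in that direction that 4.22% of all genes had and 1 of the 10 receptor genes, while 3.41% of all genes and 0 receptor genes had SUS above RES. Its log2 fold change in SUS against RES was -0.23 (SE 0.222, 95% interval -0.71 to 0.24, edgeR adjusted p = 0.948), and -0.13 without RES replicate 3 and SUS replicate 3. In RES against naive and in cocaine against naive, no receptor gene had groups that did not overlap in CPM, where 3.31% of all genes were higher and 2.82% lower without overlap in RES against naive, and 0.617% and 0.553% in cocaine against naive. With all 9 libraries, Chrm5 had the largest fold change of the 10 genes in SUS against RES, with 6.13, 6.01 and 9.36 CPM in RES and 3.36, 7.43 and 3.26 in SUS (log2 fold change -0.63, SE 0.366, 95% interval -1.41 to 0.15, edgeR adjusted p = 0.887). SUS replicate 2 fell inside the RES range, and in naive the values were 5.87, 4.53 and 9.44 CPM. The Chrm5 difference ran from -0.37 without RES replicate 3 to -1.13 without SUS replicate 2 (edgeR unadjusted p = 0.00597, adjusted p = 0.180), and was -0.17 without both RES replicate 3 and SUS replicate 3.

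Chrm1 had log2 fold changes of -0.10 (SE 0.362, 95% interval -0.87 to 0.67), -0.09 (SE 0.360, -0.86 to 0.67), 0.01 (SE 0.360, -0.76 to 0.77) and -0.10 (SE 0.305, -0.75 to 0.55), in the order of comparisons given above. Among the nicotinic subunits, with all 9 libraries, the largest differences were those of Chrna6 in SUS against RES (-0.38, SE 0.283) and in SUS against naive (-0.36, SE 0.283), and of Chrna4 in SUS against naive (0.36, SE 0.233). For Chrna6 these became -0.11 and -0.088 without SUS replicate 3, and -0.68 and -0.66 without SUS replicate 2 (edgeR adjusted p = 0.362 and 0.560). Without both RES replicate 3 and SUS replicate 3, the Chrna6 value in SUS against RES was -0.0062. The Chrna4 value was 0.18 without naive replicate 2. Chrna4 stood at 17.1, 11.5 and 19.6 CPM in the naive libraries, 16.3, 18.0 and 19.5 in the RES libraries and 18.7, 22.7 and 21.3 in the SUS libraries. Chrna6 stood at 14.1, 12.997 and 10.2 CPM in the naive libraries, 11.04, 12.5 and 14.0 in the RES libraries and 10.1, 13.2 and 5.56 in the SUS libraries, where replicate 3 was the lowest of all 9 libraries. Chrna7 stood at 15.7, 16.6 and 15.9 CPM in the naive libraries, 17.2, 12.0 and 16.4 in the RES libraries and 12.9, 17.1 and 23.2 in the SUS libraries, where the same replicate was the highest of all. The fold changes of Chrna7 (-0.07 to 0.21), Chrnb2 (-0.20 to 0.02) and Chrna5 (-0.17 to 0.34) were smaller than or close to their standard errors in all 4 comparisons. An interval that includes 0 does not show that a gene was equal between groups.

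**Figure D4:**
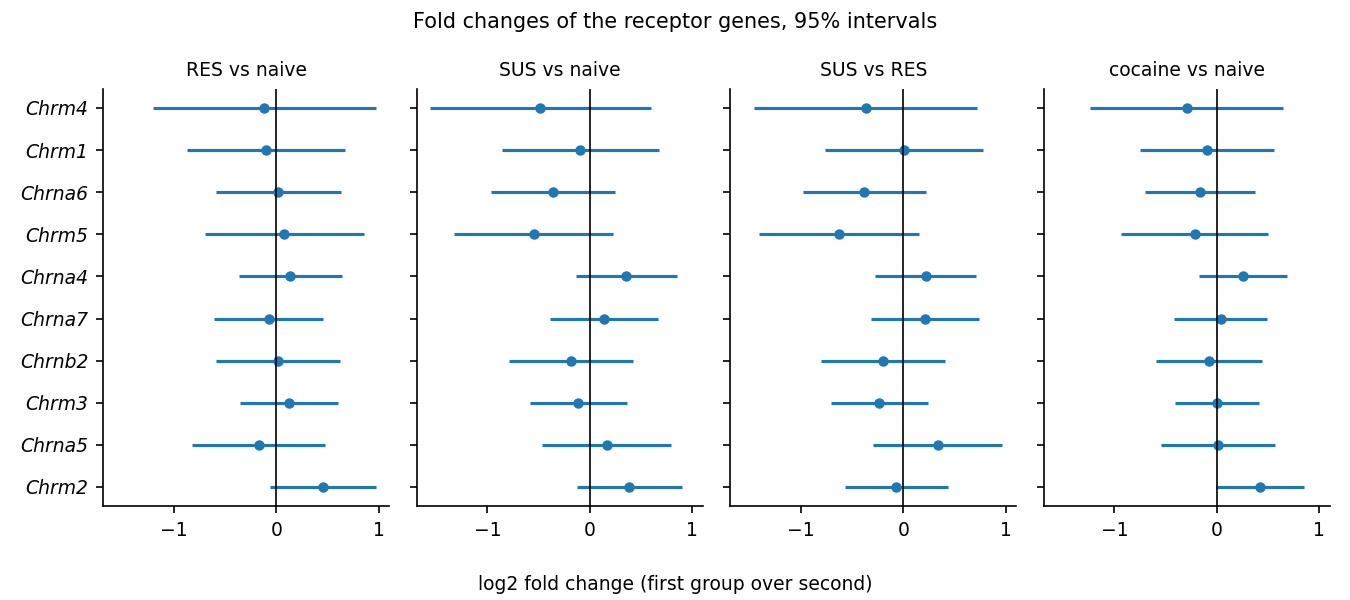
Log2 fold changes of the 10 receptor genes in 4 comparisons, with 95% intervals from edgeR's quasi-likelihood fit. All 40 intervals include 0, and those of Chrm4 are the widest.

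Of the 11 marker lists, that of microglia had the largest median fold change in SUS against RES: 10 of 10 genes were positive, with a median of 2.44 on the log2 scale, and 0 passed. The medium spiny neuron genes, with which Chrm4, Chrm1 and Chrnb2 moved, had a median log2 fold change of 0.02, -0.14, -0.10 and 0.02 in the same order of comparisons. The part of cell makeup in the fold changes of the receptor genes was not tested.

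The remaining genes of acetylcholine signalling were taken from 4 lists, and 0 of their members passed in any comparison. For the levels below, 26.1% of protein-coding nuclear genes averaged more than 3 times background. Of 11 other nicotinic subunit genes, 0 averaged more than 3 times background, the highest being the muscle subunit genes Chrnb1 (2.21 times, SD 0.373, n = 9) and Chrne (1.84 times, SD 0.332) and the neuronal and hair cell subunit genes Chrna2 (2.06 times, SD 0.410) and Chrna9 (2.01 times, SD 0.358). In SUS against RES 9 of these 11 had a negative fold change (median -0.22), where 51.2% of all genes tested had a positive one. Chrnd, a muscle subunit gene, was at -0.62 (SE 0.253, unadjusted p = 0.0267, edgeR adjusted p = 0.870) and Chrna10, a hair cell subunit gene, at -0.46 (SE 0.262, unadjusted p = 0.102, edgeR adjusted p = 0.887). In SUS against naive and in cocaine against naive 9 of the 11 genes were also negative, and in RES against naive 3 were. The part of background in the direction of these 11 genes was not tested.

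Of 8 genes for proteins that assist or modulate nicotinic receptors, Ly6e (5.67 times background, SD 4.58, n = 9) and Ly6h (4.00 times, SD 1.79) averaged above 3 times, and Lypd6b (2.38 times) and Lynx1 (2.08 times) did not. For Ly6e the log2 fold change in SUS against RES was 1.63 (SE 0.637, unadjusted p = 0.0216, edgeR adjusted p = 0.870).

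Downstream of the muscarinic receptors the picture differed in level: 16 of 24 transduction genes averaged above 3 times background, where 26.1% of protein-coding nuclear genes did. The highest were the Gi/o subunit genes Gnai2 (13.3 times, SD 8.24, n = 9) and Gnao1 (12.8 times, SD 7.19), the β subunit gene Gnb1 (8.51 times, SD 2.37) and the phospholipase C gene Plcb1 (7.41 times, SD 2.87). These proteins also serve many other receptors. In SUS against RES 12 of the 24 had a positive fold change and 3 an unadjusted p under 0.05, where 51.2% and 5.68% of all genes tested did. The 3 were Arrb2, the gene of β-arrestin 2 (1.37, SE 0.460, unadjusted p = 0.00934, edgeR adjusted p = 0.870), Gnai3 (0.74, SE 0.310, unadjusted p = 0.0304, edgeR adjusted p = 0.870) and Gnai2 (1.24, SE 0.548, unadjusted p = 0.0394, edgeR adjusted p = 0.870). The microglia genes were positive in the same comparison (10 of 10), and their part in the values of Ly6e, Arrb2, Gnai3 and Gnai2 was not tested.

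Of 8 genes of acetylcholine synthesis, transport and breakdown, the choline transporter-like gene Slc44a1 averaged above 3 times background (3.94 times, SD 1.16, n = 9). Ache, the gene of acetylcholinesterase, was at 2.64 times (SD 0.897), its membrane anchor Prima1 at 2.60 times (SD 0.582) and its collagen tail Colq at 2.42 times (SD 0.343). The log2 fold change of Prima1 in SUS against naive was 0.63 (SE 0.232, unadjusted p = 0.0163, edgeR adjusted p = 1.00). Slc18a3, the vesicular acetylcholine transporter gene, had a log2 fold change of 1.21 in SUS against RES (SE 0.459, unadjusted p = 0.0188, edgeR adjusted p = 0.870) at a mean level of 0.854 times background.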

How the data were processed

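The authors deposited raw counts of reads per Ensembl gene for 9 libraries in 1 table, with no scaling. Per the submitters' processing notes, FastQC, STAR 2.5.2b, HTSeq, DESeq and DESeq2 were used with the build GRCm38; strand setting and annotation release are not given in the sources used here. Of 52636 gene IDs, 52489 matched GENCODE mouse release 21, which gave symbols, positions and exonic lengths, and 147 matched neither GENCODE nor the table of gene names. Promoter windows came from RefSeq.

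Low counts were removed with filterByExpr, libraries were scaled by TMM (factors 0.743 to 1.58) and genes were tested with the edgeR 4.0.16 quasi-likelihood test (limma 3.58.1, R 4.3.3), 3 groups in 1 model and cocaine against naive in another, with Benjamini-Hochberg adjustment at 0.05. Standard errors were computed from each fold change and the F statistic of its test. The test was tried on simulated counts. CPM are scaled by TMM, and log2 CPM have a prior count of 2. Levels, order and relations to the medium spiny neuron score used exact tests over libraries, and the depth alone gives only the counting error. Alternatives were DESeq2 1.42.0, other scaling, no filter, limma-voom, a replicate block, another gene length and leaving out libraries. The 10 receptor genes are always named. Of each other list the 4 genes of highest level and up to 2 more of smallest p could be named, of each marker list the first 3, and the 3 genes most like a receptor gene above 3 times background. The genes, lists and marker sets were chosen with earlier results of these data known.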

Additional observations from a re-analysis of the deposited data

How the results depend on the processing

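The number of genes called was 0 in each of the 4 comparisons under each alternative run (DESeq2, scaling by relative log expression, no filter, limma-voom, a replicate block, without 1 library, and without RES replicate 3 and SUS replicate 3). Correlations of deviations from the group means ran from -0.170 to 0.172 between same-numbered libraries. Between differently numbered libraries they ran from -0.314 to 0.299. These values do not settle whether the replicate numbers pair the libraries. With the replicate block 0 genes were called in each comparison, as without it. None of the 40 receptor fold changes passed under any alternative (smallest adjusted p 0.180, Chrm5 in SUS against RES without SUS replicate 2), and the cause of the sign changes below was not tested. Chrm2 stayed positive in RES, SUS and cocaine against naive under all of them.

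Values in this and the next paragraph are log2 fold changes. With limma-voom the sign turned for Chrm5 (-0.13) and Chrna6 (-0.034) in RES against naive, Chrna7 in SUS against naive (-0.16), Chrm1 (-0.26) and Chrna7 (-0.15) in SUS against RES, and Chrna5 (-0.087) and Chrna7 (-0.044) in cocaine against naive. With the replicate block it turned for Chrnb2 in RES against naive (-0.0017), Chrm1 in SUS against RES (-0.030) and Chrna5 in cocaine against naive (-0.0071). Chrm1 in SUS against RES also turned with DESeq2 (-0.0034) and with the other scaling (-0.0012). Without RES replicate 3 and SUS replicate 3, chosen after seeing the data, the values were 0.15 for Chrm1, 0.26 for Chrm4, -0.20 for Chrm5 and -0.083 for Chrna6 in RES against naive, 0.11 for Chrm1, -0.062 for Chrna5 and -0.10 for Chrna7 in SUS against naive, -0.045 for Chrm1 in SUS against RES, and 0.13 for Chrm1, 0.088 for Chrm4, -0.19 for Chrna5, -0.12 for Chrna7 and 0.063 for Chrnb2 in cocaine against naive.

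Leaving out each library in turn turned the sign of 23 fold changes. In RES against naive the ranges were -0.42 to 0.16 for Chrm1, -0.045 to 0.23 for Chrm3, -0.68 to 0.27 for Chrm4, -0.17 to 0.45 for Chrm5, -0.018 to 0.31 for Chrna4, -0.37 to 0.095 for Chrna5, -0.12 to 0.13 for Chrna6, -0.15 to 0.078 for Chrna7 and -0.15 to 0.23 for Chrnb2. In SUS against naive they were -0.57 to 0.11 for Chrm1, -0.065 to 0.36 for Chrna5, -0.10 to 0.32 for Chrna7 and -0.45 to 0.036 for Chrnb2. In SUS against RES they were -0.46 to 0.32 for Chrm1, -0.27 to 0.033 for Chrm2, -1.13 to 0.20 for Chrm4 and -0.027 to 0.38 for Chrna7. In cocaine against naive they were -0.28 to 0.077 for Chrm1, -0.16 to 0.11 for Chrm3, -0.40 to 0.15 for Chrm5, -0.11 to 0.14 for Chrna5, -0.078 to 0.12 for Chrna7 and -0.25 to 0.14 for Chrnb2.

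Of levels, the count of receptor genes above the median silent gene was 1. It became 2 with the longest transcript as length (Chrm4 and Chrna7). It was 0 without RES replicate 3 and SUS replicate 3, and 0 to 1 without 1 library. The count below the median silent gene was 3, 4 with the longest transcript (Chrm2, Chrna4, Chrna5 and Chrna6), 0 without both libraries, and 2 to 3 without 1. With 8 libraries the smallest exact sign-flip p is 0.00781. With 7 libraries the smallest exact p is 0.0156, and Chrm4, Chrm2 and Chrna5 reached it there (adjusted p = 0.0521). The number of differing pairs was 23, and 16 to 25 without 1 library.

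Counts of 15 to 432 per gene and library, and background at up to 50.6% of nuclear counts, limit what levels near background can show.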
